A study of Mus musculus with 3 samples.

Results

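The mitochondrial ribosomal protein genes were examined in the cytosolic RNA of mouse macrophages. They were taken as the genes whose symbol starts with Mrpl or Mrps followed by a digit, pseudogenes left out, with at least 1 transcript annotated as protein-coding. The rule gave 78 genes among 55536 annotated genes, of which 22028 are protein-coding. Of the 78, 49 carry a large-subunit name and 29 a small-subunit name.

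The libraries measured form 1 group of 3, biological replicates 1, 2 and 3 in the labels, so the data hold no control group and no contrast between conditions. The cells were bone marrow-derived macrophages of strain C57BL/6J, a primary cell grown from marrow progenitors, with no age or sex in the labels used here. Each culture was pre-treated with Lipid A (the endotoxin moiety of lipopolysaccharide, a ligand of TLR4) at 100 ng/ml during 12 h. A washout of 12 h followed, then a second exposure of 50 min at 100 ng/ml, after which cytosol and nuclei were separated. A single strain-level donor entry covers all 3 libraries, so p-values below measure only the spread between these samples, which may be partly technical.

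Mitochondria keep a small genome of their own and translate it on a ribosome distinct from the one in the cytosol. Its ribosomal RNAs are made inside the organelle, but every one of its proteins is encoded in the nucleus, translated in the cytosol and imported, so the mRNAs measured here are the cytosolic templates of that import. The particle descends from a bacterial ribosome: many of its proteins have bacterial counterparts, whereas others were gained in the mitochondrial lineage and took over surface that ribosomal RNA covers in bacteria. It makes hydrophobic core subunits of the respiratory chain, which are assembled with subunits encoded in the nucleus.

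The libraries held between 47972062 and 54409436 expected counts over annotated genes. Protein-coding genes held 33.3%, 26.1% and 37.0% of all TPM in replicates 1, 2 and 3, and noncoding entries the remainder. TPM is a level per unit of transcript length that sums to the same total in every library, and levels are also given below rescaled to the protein-coding genes alone. All 12 macrophage marker genes, such as Lyz2 (lysozyme, mean of 3417 TPM), reached 1 TPM in every replicate, and none of the markers of T and NK cells, B cells, erythroid cells or fibroblasts did, the highest being the B cell gene Cd79b with 1.16, 1.89 and 0.94 TPM. Of 8 neutrophil markers 3 did, with means of 2.11 TPM for Mmp8, 3.80 TPM for S100a8 and 5.41 TPM for S100a9, while the granulocyte marker Ly6g stood at 0 in all 3 libraries. RNAs that are retained in the nucleus differed between the libraries, with Malat1 at 6066, 3077 and 1408 CPM (counts scaled to library size) in replicates 1, 2 and 3.

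All 78 mitochondrial ribosomal protein genes were detected at 1 TPM or more in every replicate, against 41.1% of protein-coding genes (9059 of 22028). Their median level was 12.1, 9.97 and 12.4 TPM in replicates 1, 2 and 3, a mean of 11.5 ± 1.34 TPM (SD, n = 3). Over the 9059 coding genes detected in the same way the median was 9.12 ± 1.61 TPM (SD, n = 3), so the members sat close to the middle of the expressed transcriptome. On TPM rescaled to protein-coding genes the medians were 36.1 ± 2.33 for the members and 28.4 ± 0.858 for the detected coding genes (SD, n = 3). In bulk RNA a lower level may reflect fewer expressing cells or less RNA per cell, and the files cannot tell these apart.

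The members also lay close to one another. Their 25th and 75th percentiles of mean TPM were 7.92 and 16.7, a ratio of 2.11, whereas the same ratio over the detected coding genes was 5.30. This closeness was not particular to the members. The same percentiles were 132 and 251 TPM for the cytosolic ribosomal proteins, a lower ratio than in the members. For the nuclear respiratory chain genes they were 24.4 and 71.6 TPM, a higher ratio. Of the 78, 71 had a mean of at least 5 TPM, 44 of at least 10 TPM and 12 of at least 20 TPM. The full span from the lowest to the highest member was 25.1-fold. The order of members was nearly the same in each library, with a Spearman rho over the 78 genes of 0.983 between replicates 1 and 2, 0.963 between 1 and 3, and 0.972 between 2 and 3, given as a description since the libraries share the same gene lengths and index.

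**Figure D1:**
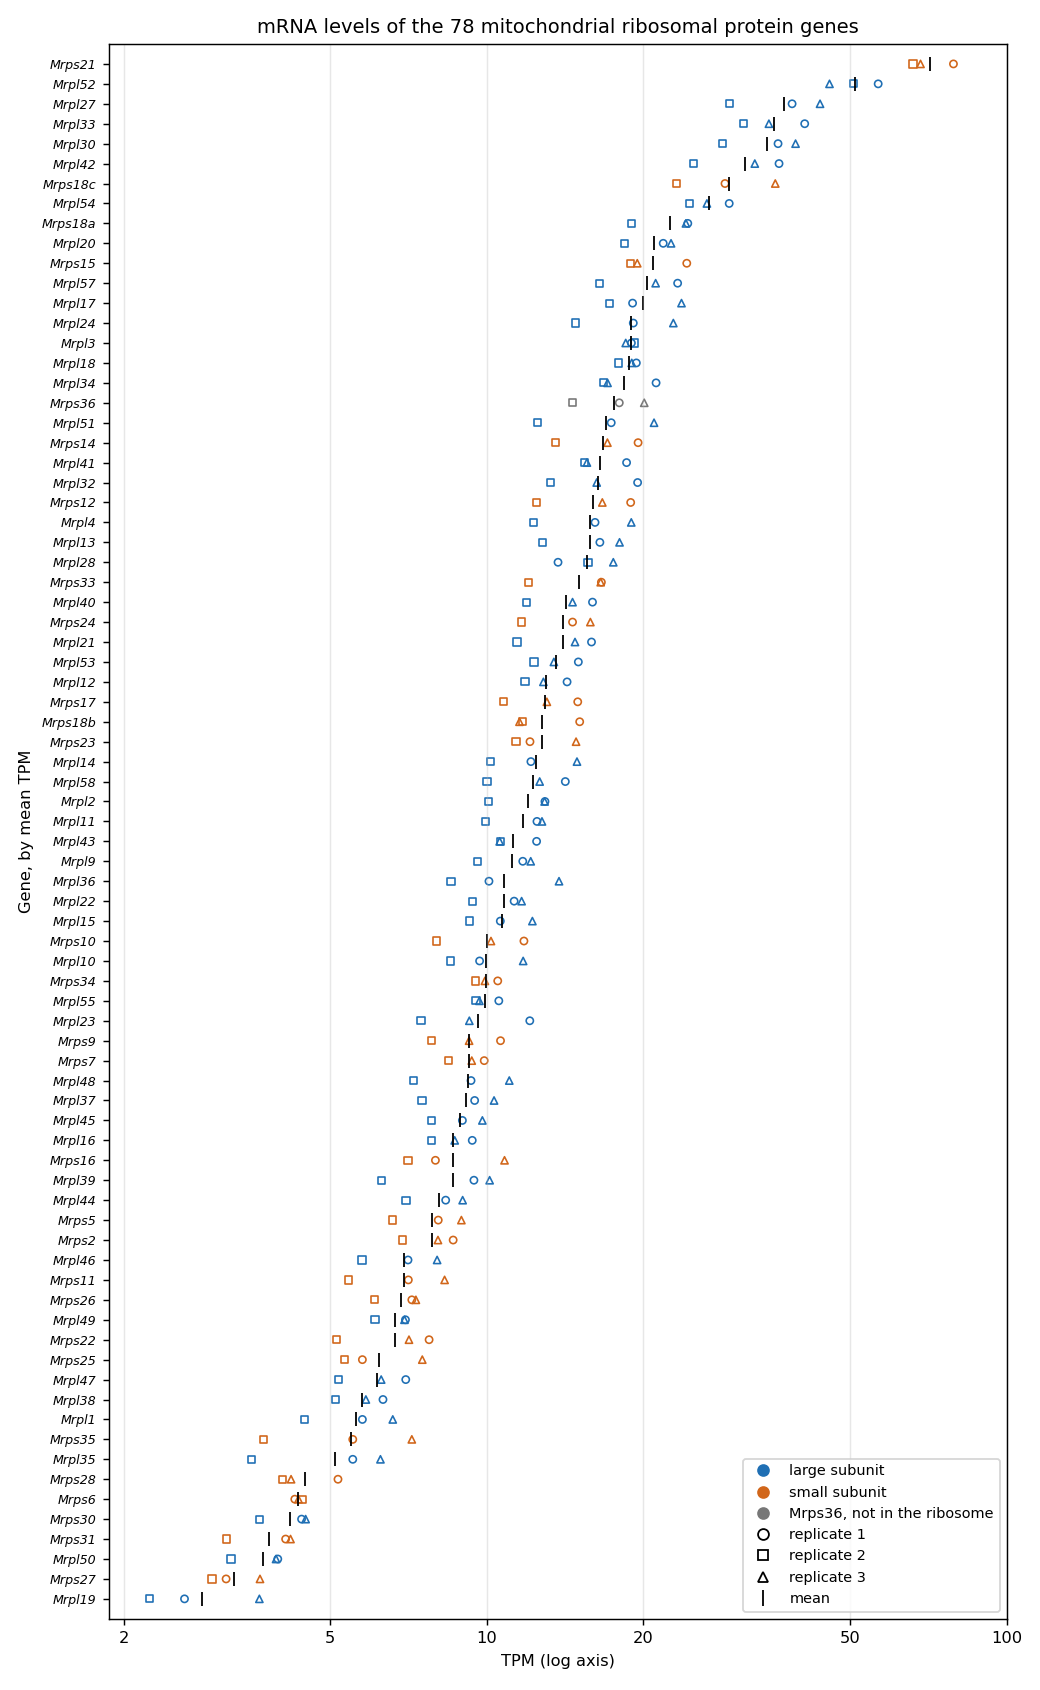
Level of each of the 78 mitochondrial ribosomal protein genes, in TPM on a log axis, with a symbol per replicate, a bar at the mean of the 3 replicates and colour by ribosomal subunit. Genes run from Mrps21 at a mean of 71.1 TPM to Mrpl19 at 2.84 TPM, and the middle of the list is a narrow band around 10 TPM.

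The most abundant member mRNA was Mrps21, which encodes bS21m of the small subunit, a small protein with a bacterial counterpart. Mrps21 had 78.9, 66.0 and 68.2 TPM in replicates 1, 2 and 3, a mean of 71.1 ± 6.91 TPM (SD, n = 3). Each of these values was above every other member in the same library. Mrpl52, encoding the mitochondria-specific large-subunit protein mL52, followed with 56.6, 50.8 and 45.6 TPM.

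Below these a group of short mRNAs of both subunits stood together. Mrpl27 (bL27m, whose bacterial counterpart lies near the peptidyl transferase centre) had 38.6, 29.3 and 43.7 TPM in replicates 1, 2 and 3. Mrpl33 (bL33m, a small protein of the large subunit) had 40.9, 31.1 and 34.9 TPM. Mrpl30 (uL30m) had 36.3, 28.3 and 39.2 TPM. The ranges of these 3 genes overlap, and their order was the same in replicates 1 and 2 but not in replicate 3. Mrpl42 (mL42, mitochondria-specific) had 36.5, 24.98 and 32.8 TPM, Mrps18c (bS18m) had 28.7, 23.1 and 35.9 TPM, and Mrpl54 (mL54) had 29.2, 24.5 and 26.5 TPM, so that neighbours in this part of the order did not differ beyond their spread over replicates.

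At the other end stood Mrpl19, encoding bL19m of the large subunit, with 2.62, 2.24 and 3.65 TPM in replicates 1, 2 and 3. Mrps27 (mS27) had 3.15, 2.96 and 3.66 TPM and Mrpl50 (mL50) had 3.96, 3.22 and 3.93 TPM. Mrps31 (mS31) had 4.10, 3.16 and 4.19 TPM. The ranges of these 4 genes overlap. Mrps30, which keeps a small-subunit symbol although its product mL65 is a large-subunit protein, had 4.40, 3.65 and 4.48 TPM, and Mrps6 (bS6m) had 4.27, 4.41 and 4.34 TPM. Even the lowest counts were well above the detection limit, since members held between 171 and 1779 expected counts per library.

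By subunit, the 51 large-subunit members had a median of 12.0 ± 1.59 TPM and the 26 small-subunit members 9.24 ± 1.19 TPM (SD, n = 3). Within each library the large-subunit median exceeded the small-subunit median, by 0.32, 0.32 and 0.39 on the log2(TPM + 1) scale in replicates 1, 2 and 3. The 46 members with bacterial homologues had a median of 11.9 ± 1.58 TPM and the 31 mitochondria-specific members 9.20 ± 1.27 TPM, a difference of 0.39, 0.33 and 0.30 log2 units in the 3 libraries. These are descriptions of the medians, with no test, and both groups of each pair overlap over most of their range. The lowest class was the 10 mitochondria-specific proteins of the small subunit, at a median of 6.85 ± 0.999 TPM, while the 16 small-subunit members with bacterial homologues stood at 9.97 ± 1.56 TPM. In the large subunit the 30 members with homologues stood at 12.8 ± 1.796 TPM and the 21 mitochondria-specific ones at 11.2 ± 1.24 TPM.

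The 3 paralogues of the bacterial protein S18 show how a gene family was divided between the subunits. Mrps18c, the small-subunit member that occupies the bacterial position, averaged 29.2 ± 6.38 TPM, and Mrps18a, whose product mL66 belongs to the large subunit, had 24.3, 19.0 and 24.1 TPM. Mrps18b, whose product mS40 is a second small-subunit protein, was lowest with 15.1, 11.7 and 11.6 TPM, below both paralogues in every library. The values of Mrps18a and Mrps18c overlapped over replicates, although Mrps18c was above Mrps18a within every library.

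The stalk of the large subunit recruits the translation factors, and is built from a base protein, uL11m, a scaffold, uL10m, and several copies of bL12m. Its mRNAs were of like abundance: Mrpl12 had 14.3, 11.8 and 12.8 TPM, Mrpl11 had 12.5, 9.93 and 12.8 TPM, and Mrpl10 had 9.68, 8.50 and 11.7 TPM. The ranges of Mrpl12 and Mrpl11 overlap, as do those of Mrpl11 and Mrpl10. Within every library, however, Mrpl12 was above Mrpl11 and Mrpl11 above Mrpl10, the closest values being 12.84 and 12.76 TPM for Mrpl12 and Mrpl11 in replicate 3. Mrps36, which keeps a ribosomal symbol although its product KGD4 is a subunit of the 2-oxoglutarate dehydrogenase complex, had 18.0, 14.6 and 20.1 TPM, within the range of the ribosomal members.

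Cytosolic ribosomal protein mRNAs were far more abundant. The members lay below the 82 cytosolic ribosomal protein genes by 3.93, 3.79 and 3.93 on the log2(TPM + 1) scale in replicates 1, 2 and 3, the medians being 11.5 ± 1.34 TPM and 185 ± 29.3 TPM (SD, n = 3). Of those 82 genes, 75 had a mean above that of Mrps21, the highest member. The members also lay below the 87 nuclear genes of the respiratory chain, whose products share the inner membrane with the proteins this ribosome makes, by 1.85, 1.81 and 1.84 log2 units. Those had a median of 43.6 ± 5.42 TPM, and 76 of the 87 were above the member median. The median effective length was 817 bases for the members, 462 bases for the cytosolic ribosomal proteins and 476 bases for the respiratory chain genes. The 13 mRNAs encoded in the mitochondrial genome, which this ribosome translates, had medians of 314, 146 and 75.3 TPM in the 3 libraries, a wider spread than in the nuclear groups above.

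**Figure D2:**
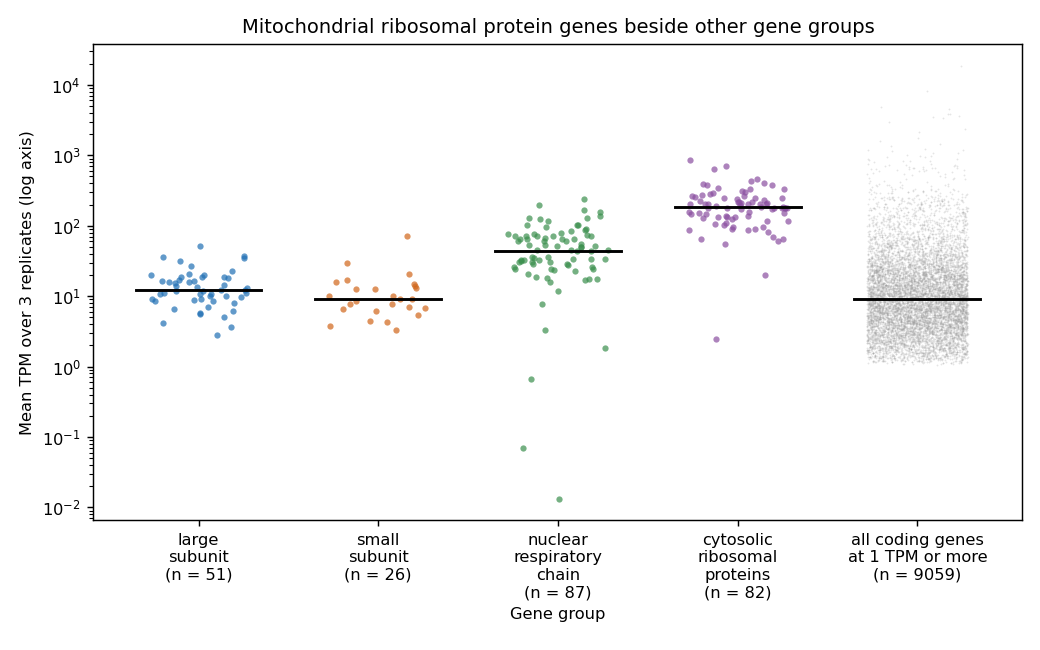
Mean TPM over the 3 replicates, on a log axis, for the large-subunit and small-subunit members, the nuclear respiratory chain, the cytosolic ribosomal proteins and all coding genes at 1 TPM or more in every replicate, with a bar at each median. The 5 respiratory chain genes at 0 TPM are not drawn but are counted in the median, and Mrps36 is left out. Both member groups lie around 10 TPM, below the respiratory chain at 43.6 TPM and the cytosolic ribosomal proteins at 185 TPM.

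Nuclear respiratory factor 1 (NRF1), the ETS-family factor GABP and YY1 are known regulators of nuclear genes for mitochondria, and their mRNAs were present: Nrf1 at 5.003 ± 0.991 TPM, Gabpa at 7.82 ± 1.99 TPM and Yy1 at 7.63 ± 1.196 TPM (SD, n = 3). Promoter windows of 300 bases, from 250 bases before the gene start to 50 after it, were available in the RefSeq table (GRCm38, the assembly mm10) for 69 of the 78 members. The windows were searched on both strands for the letters GCGCANGCG (NRF1, where N is any base), CCGGAAG (ETS), AAGATGGC (YY1) and CACGTG (E-box). The ETS and YY1 letters can share the bases AAG, but in no member window did they overlap. The NRF1 letters can overlap their own reverse complement, as they did in Mrpl9, Mrpl32 and Mrpl39, and neighbouring matches overlapped in Mrps26.

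The windows of 5 members are printed because they stand for the span of levels and of motifs: Mrps21 and Mrpl52, the highest members, Mrpl42, a high member with YY1 letters after its start, Mrps27, the second lowest member, and Mrps11, whose window holds the start of a second member. Capitals mark NRF1, ETS and YY1 matches on either strand. The windows lie at chr3:95871465-95871764 (minus strand) for Mrps21, chr14:54426659-54426958 (plus) for Mrpl52, chr10:95501900-95502199 (minus) for Mrpl42, chr13:99344536-99344835 (plus) for Mrps27 and chr7:78782881-78783180 (plus) for Mrps11.
Mrps21: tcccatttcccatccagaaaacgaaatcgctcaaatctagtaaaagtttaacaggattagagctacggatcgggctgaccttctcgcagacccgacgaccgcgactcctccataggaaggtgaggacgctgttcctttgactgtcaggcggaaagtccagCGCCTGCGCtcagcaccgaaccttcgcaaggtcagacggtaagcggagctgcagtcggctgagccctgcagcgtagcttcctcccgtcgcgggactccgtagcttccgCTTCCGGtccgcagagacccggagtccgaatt
Mrpl52: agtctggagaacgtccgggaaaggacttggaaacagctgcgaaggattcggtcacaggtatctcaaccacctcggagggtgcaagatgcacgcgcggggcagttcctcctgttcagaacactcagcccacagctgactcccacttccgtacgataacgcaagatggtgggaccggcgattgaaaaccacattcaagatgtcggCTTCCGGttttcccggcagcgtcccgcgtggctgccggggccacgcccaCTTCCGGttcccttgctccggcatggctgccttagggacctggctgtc
Mrpl42: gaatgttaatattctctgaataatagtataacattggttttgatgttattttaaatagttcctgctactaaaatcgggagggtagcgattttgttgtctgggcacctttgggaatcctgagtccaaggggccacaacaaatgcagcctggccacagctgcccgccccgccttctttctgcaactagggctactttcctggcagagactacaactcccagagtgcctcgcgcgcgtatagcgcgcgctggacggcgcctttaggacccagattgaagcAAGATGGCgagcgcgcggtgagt
Mrps27: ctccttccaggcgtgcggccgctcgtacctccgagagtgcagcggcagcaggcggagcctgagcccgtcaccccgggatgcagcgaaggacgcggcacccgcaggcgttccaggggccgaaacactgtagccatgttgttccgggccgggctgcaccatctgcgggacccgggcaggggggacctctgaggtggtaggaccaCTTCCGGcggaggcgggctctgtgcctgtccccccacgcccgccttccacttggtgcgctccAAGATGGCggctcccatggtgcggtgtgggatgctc
Mrps11: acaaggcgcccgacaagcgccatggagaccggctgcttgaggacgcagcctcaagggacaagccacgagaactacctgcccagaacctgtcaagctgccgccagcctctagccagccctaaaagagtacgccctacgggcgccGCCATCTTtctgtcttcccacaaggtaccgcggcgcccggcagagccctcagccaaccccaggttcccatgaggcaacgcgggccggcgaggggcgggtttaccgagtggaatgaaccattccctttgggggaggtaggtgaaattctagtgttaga

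Mrps21 held an NRF1 match starting 90 bases before the gene start and an ETS match 18 bases after it. Mrpl52 held ETS matches 47 bases before and 2 bases after the start, and Mrps27 an ETS match 48 bases before and YY1 letters 14 bases after it. Over the members, ETS letters were in 37.7% of windows (26 of 69), NRF1 letters in 23.2% (16 of 69) and YY1 letters in 17.4% (12 of 69). Among 7264 coding genes detected in every replicate the shares were 23.6%, 17.3% and 6.29%, and over the 27025 genes with a RefSeq window they were 9.93%, 7.03% and 3.19%. In windows of 61 cytosolic ribosomal protein genes the ETS, NRF1 and YY1 shares were 41.0%, 13.1% and 9.84%. In those of 67 nuclear respiratory chain genes they were 23.9%, 29.85% and 13.4%. The ETS share was thus higher in the first of these groups than in the members, and the NRF1 share higher in the second. At least 1 of the 3 was present in 63.8% of member windows, against 40.25% of the windows of detected coding genes. The E-box letters were in 7.25% of member windows, against 12.7% in detected coding genes. The median GC content was 58% in member windows and 61% in those of detected coding genes. A match is a run of letters and not a bound site, and no test was made of these shares.

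The YY1 letters often lay at the start of the coding sequence. In 8 of the 12 members that held them they lay after the gene start and in the direction of the gene, between 11 and 36 bases downstream, in Mrps18a, Mrps27, Mrpl49, Mrps7, Mrpl35, Mrpl37, Mrpl42 and Mrps24. In 6 of these (Mrps18a, Mrps27, Mrpl49, Mrps7, Mrpl35 and Mrps24) the ATG inside the letters was the annotated start codon of the gene. Among all detected coding genes whose windows held these letters, 49.5% had them after the start in the gene's direction and 32.6% at an annotated start codon. Members with ETS letters had a median of 15.5 TPM (26 genes) and those without 9.91 TPM (43 genes), while members with and without NRF1 letters stood at 11.8 TPM (16 genes) and 12.0 TPM (53 genes). The NRF1 matches were most numerous in Mrpl45 and Mrpl32, with 3 each, counting overlapping reads of both strands.

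Members with short transcripts had the higher TPM. Mrps21 and Mrpl52 have mean effective lengths (the transcript length left after allowing for fragment size) of 244 and 214 bases, and Mrpl19, the lowest member, has the longest at 4063 bases. Over the 78 members the Spearman rho of mean TPM against effective length was -0.70, and over the detected coding genes -0.16. Both axes share the effective length, since TPM is divided by it, and the expected counts themselves gave a rho of 0.24. Members off this line were Mrps6 and Mrps28, with short effective lengths of 634 and 571 bases and low levels of 4.34 and 4.47 TPM, and Mrpl45, a protein at the exit of the nascent chain that tethers the particle to the inner membrane, with 2184 bases and 8.86 TPM.

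**Figure D3:**
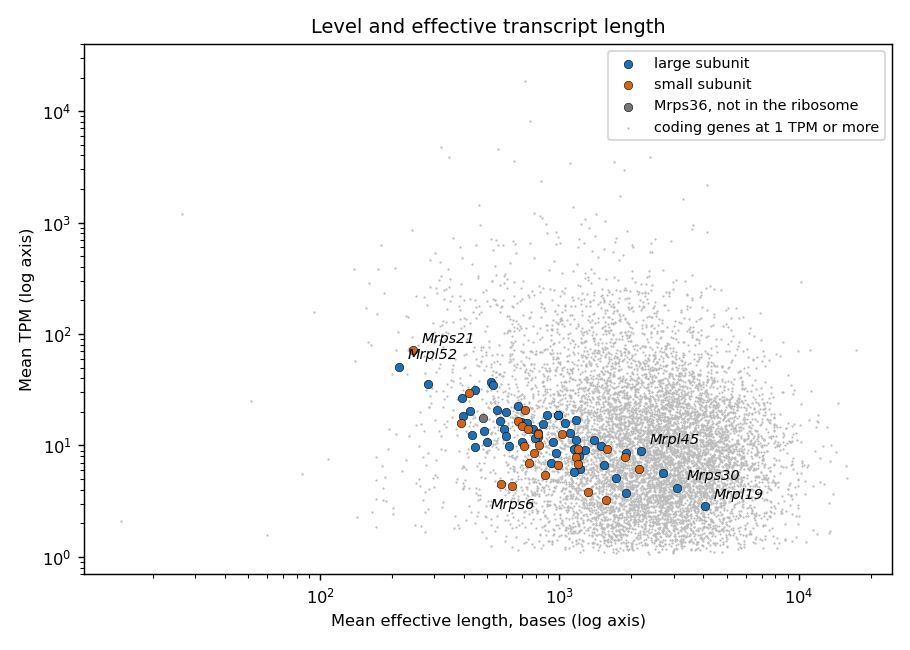
Mean TPM against mean effective transcript length, both on log axes, for the members by subunit and for coding genes at 1 TPM or more in every replicate in grey. Members run from Mrps21 and Mrpl52 at the upper left to Mrps30 and Mrpl19 at the lower right, along a band with a Spearman rho of -0.70.

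Replicates differed little for most members. On CPM scaled by trimmed mean of M values (TMM), the ratio of the highest to the lowest replicate had a median of 1.17 over the members and of 1.27 over the 13827 genes averaging 10 counts or more. Over the detected coding genes it was 1.187, close to that of the members. The ratio was under 1.2 for 47 members and over 1.5 for 1. A Poisson heterogeneity chi-square test of the 3 counts, with Benjamini-Hochberg adjustment over all 13827 genes, called 49 of the 78 members (62.8%) at an adjusted p under 0.05, against 70.0% of all genes tested. Among 4400 coding genes in the members' range of mean count it called 65.6%, so with all 3 libraries the members' share was near the background. Without replicate 2 it called 37.2% of members (29) against 52.8% of all genes, and without replicate 3 it called 37.2% (29) against 49.8%. Without replicate 1 it called 48.7% (38) against 53.8%, a smaller gap to all genes than with all 3 libraries. The share of coding genes in the members' range of counts was not computed with a library left out. The biological coefficient of variation is the spread beyond counting error, which edgeR estimated across all genes and drew toward genes of like count. Its median was 0.134 over the members and 0.164 over all genes tested. It was 0.148 over the coding genes in the same range of counts and 0.134 over the detected coding genes, the same as over the members.

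The member with the highest ratio between replicates was Mrpl28, encoding bL28m of the large subunit. The biological coefficient of variation was higher in Mrps6 (0.226) and Mrps28 (0.218), both of low count, than in Mrpl28 (0.173). Being drawn toward genes of like count, it does not rank members by their own spread. Mrps31, with a ratio of only 1.03, had 0.151. Mrpl28 had 16.5, 24.9 and 20.7 CPM in replicates 1, 2 and 3, a ratio of 1.51 with an adjusted p of 1.90e-19 in the chi-square test across all genes. The value of replicate 1 was the lowest and that of replicate 2 the highest. Mrpl52 followed at 16.9, 19.7 and 13.9 CPM, a ratio of 1.42, and Mrps6 at 3.79, 5.21 and 3.82 CPM, a ratio of 1.375. In both genes replicate 2 was the highest library. Mrpl43 (mL43) had 20.4, 23.4 and 17.1 CPM, a ratio of 1.365, and Mrps18b had 17.6, 17.5 and 13.1 CPM, a ratio of 1.35. Mrpl36 (bL36m) had 9.96, 11.1 and 13.2 CPM, and was the one among these 8 genes that was highest in replicate 3. Mrpl41 (mL41) had 14.6, 16.2 and 12.2 CPM and Mrps15 (uS15m) 24.7, 25.5 and 19.2 CPM, both lowest in replicate 3, with a ratio of 1.33 each. All 8 passed the chi-square test, with adjusted p-values over all genes up to 0.000596 for Mrps6. The most even members were Mrpl13 with 17.3, 17.7 and 17.6 CPM, Mrps31 with 7.68, 7.77 and 7.57 CPM, Mrps33 with 15.7, 16.4 and 15.7 CPM, and Mrpl2 with 14.9, 15.3 and 14.6 CPM. None of these 4 passed the test.

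The small differences ran mostly the same way. On TMM-scaled CPM, 52 of the 78 members were highest in replicate 2, against 31.4% of all genes tested, 13 were highest in replicate 1, against 34.4%, and 13 in replicate 3, against 34.2%. Replicate 3 was the lowest library for 43 members (36.8% of all genes tested), replicate 1 for 32 (32.2%) and replicate 2 for 3 (31.0%), namely Mrpl39, Mrps11 and Mrps22. The median deviations from each gene's mean were -0.03, 0.08 and -0.05 log2 units in replicates 1, 2 and 3. Both subunits shared this pattern, with 35 of 51 large-subunit and 17 of 26 small-subunit members highest in replicate 2. Of the coding genes in the same range of counts, 1822 of 4400 were highest in replicate 2. The cytosolic ribosomal proteins had 19 of 82 highest there, and the respiratory chain genes 41 of 80 in replicate 2 and 35 of 80 in replicate 3.

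This order rests on the scaling. On unscaled TPM the median of all genes tested was shifted by 0.10, -0.23 and 0.13 log2 units in replicates 1, 2 and 3, and 72 of 78 members were lowest in replicate 2, as were 80.0% of all genes tested. Relative to that shift, the members' median in replicate 2 was 0.08 log2 units higher than that of all genes on TMM-scaled CPM, 0.06 on TPM rescaled to protein-coding genes and 0.01 on unscaled TPM. Over the same libraries the mitochondrially encoded mRNAs were lowest in replicate 3 for 12 of 13 genes and highest in replicate 1 for 10, and Malat1 was likewise highest in replicate 1 and lowest in replicate 3. The part of these differences in the members' values was not tested.

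**Figure D4:**
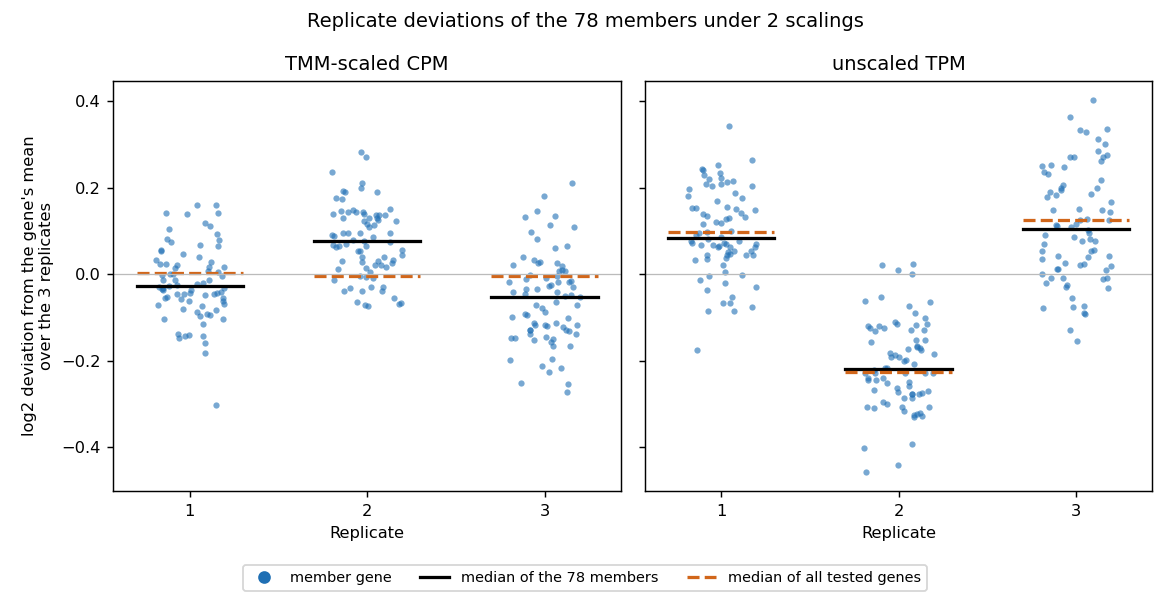
Deviation of each member from its own mean over the 3 replicates, in log2 units, by replicate, on TMM-scaled CPM (left) and unscaled TPM (right). Solid bars are the medians of the 78 members and dashed bars those of all genes tested. On TMM-scaled CPM the member median is above that of all genes in replicate 2 by 0.08, and on unscaled TPM both medians lie below the gene means in that library.

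Most members were expressed as annotated coding transcripts. Per member, the median share of TPM on protein-coding transcripts was 98.3 ± 0.307% over the 3 libraries (SD, n = 3). The share was at least 90% in 70.5% of members (55 of 78), against 71.1% of detected coding genes. Summed over all members, coding transcripts held 85.0%, 86.2% and 84.7% of TPM, transcripts annotated for nonsense-mediated decay 5.97%, 5.74% and 6.28%, and retained-intron transcripts 4.44%, 4.02% and 4.597% in replicates 1, 2 and 3. The annotation lists 170 coding, 88 retained-intron, 61 processed and 24 nonsense-mediated-decay transcripts of these genes.

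A minority showed the opposite, with 16 members under 75%. The lowest on TPM was Mrpl57, encoding the mitochondria-specific large-subunit protein mL63, with 3.52%, 5.89% and 5.45% of its TPM on its coding transcript in replicates 1, 2 and 3. The remainder lay on a retained-intron transcript of 519 bases, against 2877 bases for the coding one. In Mrpl32 (bL32m) the coding share was 6.67%, 8.08% and 8.60%, and decay-annotated transcripts held 91.6% on average. Mrps14 (uS14m) had 10.4%, 11.0% and 13.8%, with 88.3% on a decay-annotated transcript of 674 bases.

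Mrps26 (mS26) had 11.3%, 11.2% and 10.3% of its TPM on coding transcripts, and a retained-intron transcript of 1057 bases held 89.1% on average. Mrps16 (bS16m) had 13.3%, 11.5% and 8.60%, and a processed transcript of 801 bases held 88.9%. In these 5 genes the coding share was low in every library. The second quantification gave mean coding shares of 5.53% for Mrpl57, 6.68% for Mrpl32, 8.76% for Mrps26, 8.30% for Mrps16 and 12.3% for Mrps14, so both placed these 5 genes far below the member median. In each case the main transcript of another type is several times shorter than the longest coding one, and TPM weighs short transcripts up. On expected counts the coding share was 30.9 ± 5.79% for Mrpl57, 31.6 ± 3.59% for Mrpl32, 37.1 ± 1.77% for Mrps26, 33.4 ± 5.78% for Mrps16 and 39.1 ± 2.62% for Mrps14 (SD, n = 3). Mrpl3 (uL3m) was the lowest by counts, with 24.6%, 24.0% and 18.3% coding in replicates 1, 2 and 3, against a mean of 19.5% on TPM. By counts 7 members lay under 50% coding, and by TPM 14. The gene-level TPM of these members therefore rests largely on the shorter transcript models.

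**Figure D5:**
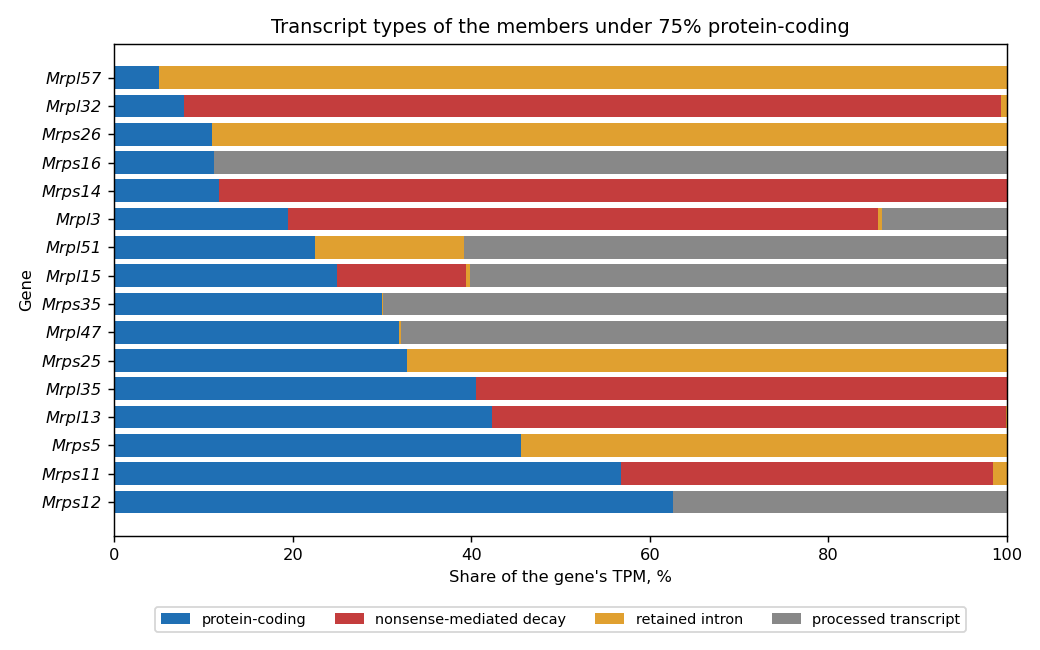
Share of each gene's TPM, in percent and averaged over the 3 replicates, by annotated transcript type, for the 16 members under 75% protein-coding. Mrpl57 is at the top with 4.95% coding and 95.05% retained intron, and Mrps12 at the bottom with 62.6% coding.

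The 2 quantifications of the authors, 1 from gene tables and 1 summed from a second set of transcript tables, placed the members in nearly the same order, with a Spearman rho of 0.978 on TPM rescaled to coding genes. Their values lay within 0.5 log2 units of each other for 76 of 78 members. The largest difference was in Mrpl23, encoding uL23m at the exit of the peptide tunnel, with 6.12, 3.85 and 5.87 coding-rescaled TPM in the second quantification and 29.99 ± 5.77 in the gene tables (SD, n = 3). That is a difference of -2.31 ± 0.35 log2 units (SD, n = 3). The processed pseudogene Mrpl23-ps1 moved the other way, with 546, 631 and 535 estimated counts in the second quantification and 220, 294 and 262 in the gene tables, where Mrpl23 itself had 362, 331 and 307. The level of Mrpl23 is therefore uncertain, with a posterior SD of up to 8.77% of its count. Mrpl19 had 14.4, 13.0 and 15.3 coding-rescaled TPM in the second quantification and 7.87, 8.59 and 9.87 in the gene tables, a difference of 0.64 ± 0.14 log2 units. Mrps12 (uS12m) had 46.6, 36.1 and 36.7 against 56.8, 47.7 and 45.1, a difference of -0.32. Mrps5 (uS5m) had 31.5, 32.5 and 28.9 against 24.2, 25.2 and 24.1, and Mrpl35 (bL35m) had 20.5, 18.8 and 19.0 against 16.6, 13.5 and 16.9, differences of 0.32 and 0.30. Each of these 4 genes differed in 1 direction in all 3 libraries. No other member had a posterior SD above 2.18% of its count, the value of Mrps25, and 45 members had a posterior SD of 0 in every library.

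The members are dispersed over 17 chromosomes, with at most 11 on 1 of them and none on X or Y. Close divergent neighbours were common. In the GENCODE M21 annotation, 42.3% of members (33 of 78) had the start of a protein-coding gene on the opposite strand within 1000 bases, against 10.8% of coding genes and 18.6% of detected coding genes. One such pair consists of members of both subunits: Mrps11 (uS11m, chr7:78783119-78792989, plus strand) and Mrpl46 (mL46, chr7:78775236-78783531, minus strand), whose annotated genes overlap by 413 bases. The RefSeq starts lie 42 bases apart, both inside the Mrps11 window printed above, and the YY1 letters of that window lie 58 bases into Mrpl46 and in its direction. The mRNA levels of the pair were alike: Mrps11 had 7.06, 5.42 and 8.29 TPM and Mrpl46 had 7.05, 5.75 and 8.02 TPM in replicates 1, 2 and 3.

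Among other pairs, levels were alike in some and unequal in others. Mrpl2 (uL2m) begins 207 bases from Klc4, a kinesin light chain gene, and had 12.9, 10.1 and 12.9 TPM, against 11.4, 8.55 and 10.8 TPM for Klc4. Mrps7 (uS7m), whose start lies inside an overlap with Gga3, averaged 9.22 TPM, and Gga3 7.79 TPM. Mrpl49 begins 59 bases from Fau, which encodes a ubiquitin-like fusion to the cytosolic ribosomal protein eS30. Mrpl49 averaged 6.67 TPM, and Fau 438.5 TPM. Mrpl32 begins 75 bases from the proteasome gene Psma2 (33.9 TPM), Mrps12 172 bases from Sars2 (1.83 TPM), the mitochondrial seryl-tRNA synthetase, and Mrps18c 29 bases from Helq (1.10 TPM), a DNA helicase. Mrpl36 starts 29 bases from Ndufs6 and Mrpl47 615 bases from Ndufb5, both genes of respiratory complex I, with 33.4 and 25.7 TPM. In all, 36 members are overlapped by a gene on the opposite strand, 18 of them by one at a mean of 1 TPM or more. Whether the counting used strand is not stated, so reads in such overlaps cannot be assigned to a strand.

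The other proteins of the same particle carry other names, and all but 1 stood within the members' range. All 5 were at 1 TPM or more in every replicate: Chchd1 (mS37) averaged 26.9 TPM and Aurkaip1 (mS38) 21.6 TPM, Dap3 (mS29, a GTP-binding protein) 10.3 TPM and Ptcd3 (mS39) 4.40 TPM, and Gadd45gip1 (mL64) was lowest at 2.38 TPM, below Mrpl19 at 2.84 TPM. Of these, 4 of 5 were highest in replicate 2 on TMM-scaled CPM, against 31.4% of all genes tested.

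The factors that work with the ribosome were lower. All 11 mitochondrial translation factors were detected in every replicate at a median of 3.65 ± 0.569 TPM, led by the elongation factors Tufm at 12.9 TPM and Gfm1 at 8.96 TPM, with the release factor gene Mtrf1l lowest at 1.69 TPM. Of 25 assembly factors and rRNA-modifying enzymes, 23 were detected at a median over the list of 3.35 ± 0.433 TPM. The list also holds Slirp, an RNA-binding partner of LRPPRC, which was highest at 41.3 TPM. Rbfa, a small-subunit assembly factor, had 14.9 TPM, and the rRNA methyltransferase gene Mettl15 was lowest at 0.36 TPM.

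Of 17 mitochondrial aminoacyl-tRNA synthetases 11 were detected, with a list median of 2.14 ± 0.157 TPM. Fars2 (phenylalanine) had 9.47 TPM, Iars2 (isoleucine) 5.83 TPM, and Mars2 (methionine) was lowest at 0.15 TPM. Genes of mitochondrial transcription, and of the protein import that brings the members' products to the matrix, had a median of 11.4 ± 1.99 TPM with 12 of 13 detected. The import genes Timm23 and Tomm22 led with 42.9 and 25.9 TPM, and Twnk, the mitochondrial DNA helicase, was lowest at 0.83 TPM. Among 9 regulators of nuclear genes for mitochondria 8 were detected, Esrra highest at 10.5 TPM and Gabpa next at 7.82 TPM. The exception was the coactivator gene Ppargc1a, with 0.01 TPM in replicate 1 and 0 in the others.

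In the chi-square test across all genes with Benjamini-Hochberg adjustment, 4 of 11 translation factors, 16 of 25 assembly factors and 8 of 17 synthetases passed at an adjusted p under 0.05, against 70.0% of all genes tested. The other lists were near or above that share. There 9 of 13 transcription and import genes (69.2%), 6 of 8 regulators tested (75%) and 4 of 5 ribosomal proteins under other names (80%) passed. The share called varies with counts, and it was not computed for genes in the range of counts of these lists. The median biological coefficient of variation was 0.169 over the translation factors, 0.174 over the assembly factors and 0.177 over the synthetases. Over all genes tested it was 0.164, and over the other lists, in the order above, 0.124, 0.126 and 0.128. Replicate 2 was the highest library for 8 of 11 translation factors, 13 of 25 assembly factors and 11 of 17 synthetases on TMM-scaled CPM. Among the 13 transcription and import genes it was highest for 8, and among the 8 regulators tested for 3. It was highest for 31.4% of all genes tested and for 1822 of the 4400 coding genes in the members' range of counts, and no difference from these was tested.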

How the data were processed

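The 3 libraries were made from 1 µg of cytosolic RNA each after rRNA depletion, and fragments of 250 to 400 bases were sequenced, per the labels. Expected counts per gene and per transcript were deposited by the authors without normalisation, and need not be whole. The TPM deposited by the authors cover every indexed feature, tRNA and spike-in entries included. The posterior SD of a count stands as a score in the deposited gene tables. The notes deposited with the files name mm10 and GENCODE M21. The gene tables have the column layout of RSEM and a second set of transcript tables that of kallisto, but no source used here gives the aligner, the quantifier, their versions or whether strand was used.

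Members were joined by gene identifier. Entries naming no gene (0.0785%, 0.0521% and 0.0251% of counts in replicates 1, 2 and 3) stayed out of library sizes and tests. Expected counts were rounded and scaled by TMM (edgeR 4.0.16, R 4.3.3), those averaging 10 counts or more were tested for Poisson heterogeneity (chi-square, 2 degrees of freedom, Benjamini-Hochberg adjustment, threshold 0.05), and edgeR fitted an intercept-only dispersion. The procedure was tested on simulated data. DESeq2 1.42.0 size factors, other filters, a pseudocount of 0.1 in place of 1 and other tables were alternatives. Subunit, homologue class, lists and motifs are textbook assignments. The members and lists were chosen with earlier results of these data known, so medians and counts are given without tests. Any member may be named. Values per replicate are given for the 8 highest and 6 lowest, the 8 most and 4 least variable, the 5 of lowest coding share, the 3 paralogues of S18, the stalk and the 5 that differ most between quantifications. Counts cover sampling error only: the precision of the fewest, 171 counts, sets that of the weakest member.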

Additional observations from a re-analysis of the deposited data

How the results depend on the processing

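No difference changed sign. All 78 members stayed at 1 TPM or more when any replicate was left out and on TPM rescaled to coding genes, 68 reached 5 TPM in every replicate, and 77 reached 1 TPM in the second quantification, the exception being Mrpl23. The median level was 36.1 on rescaled TPM and 4.76 in the second quantification, both of which are relative to another total. In the second quantification the large-minus-small difference was 0.28, the homologue-minus-specific difference 0.24, the difference from cytosolic ribosomal proteins -3.59 and that from the respiratory chain -1.63 log2 units, and the median coding share 96.4%. A pseudocount of 0.1 gave -3.99 and -1.91 for the last 2 differences, and leaving out genes under a mean of 1 TPM gave -1.97 for the respiratory chain. Leaving out 1 replicate called 29 to 38 members as varying beyond counting error, and gave a median biological coefficient of variation of 0.139 to 0.151. The members called were 29 or 37.2% without replicate 2, against 52.8% of all genes, and 29 or 37.2% without replicate 3, against 49.8%. Without replicate 1 they were 38 or 48.7%, against 53.8% of all genes. The 7-letter form GCGCANG, a part of the NRF1 letters, was in 31 windows in place of 16, or 44.9% of members and 36.1% of detected coding genes.

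The replicate order depended on scaling. On TPM rescaled to coding genes 25 members were highest in replicate 1, and 14 and 10 were lowest in replicates 1 and 2. On unscaled TPM 38, 2 and 38 members were highest in replicates 1, 2 and 3, against 44.4%, 3.93% and 51.6% of all genes tested. The lowest library was replicate 1, 2 or 3 for 2, 72 and 4 members, against 7.52%, 80.0% and 12.5%. With 1 library left out, members highest in replicate 1 numbered 14 to 45, in replicate 2 63 to 64 and in replicate 3 15 to 33, and members lowest numbered 33 to 64, 14 to 15 and 45 to 63, because only a pair of libraries is then ranked. DESeq2 size factors moved no count by more than 1. No paired analysis was possible because the study holds 1 group. With 3 libraries, 171 counts in the weakest member and a coding share of TPM that differs between libraries, differences between replicates of a few percent cannot be separated from scaling.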
